A study of Mus musculus with 4 samples.

Results

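First-intron peaks were the H3K27me2 peaks that the deposited annotation placed in intron 1 of a transcript. There were 4 lists, since the maternal and the paternal genome were listed apart in both genotypes, and members were taken by their annotation string alone and without reference to their height. Of 56036 listed peaks, 5446 were first-intron peaks. Ezh2m+/p+ zygotes had 595 of 5744 maternal and 1729 of 17863 paternal peaks in first introns. Ezh2m-/p+ zygotes had 975 of 9606 maternal and 2147 of 22823 paternal ones.

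H3K27me2 is the dimethylated form of lysine 27 of histone H3. It is deposited by Polycomb repressive complex 2, whose catalytic subunit is EZH2 or EZH1 and whose core partners are EED and SUZ12, and it lies on the path to the repressive trimethylated form. The first intron follows the promoter, is commonly the longest intron of a gene and often carries enhancers and alternative start sites.

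Zygotes were made by in vitro fertilization of C57BL/6J-background eggs with PWK/PhJ sperm and collected at the PN5 stage without polar bodies, so that sequence differences assigned reads to a parental genome. The Ezh2m+/p+ controls came from Ezh2 fl/fl mothers, which carry the floxed alleles too. The Ezh2m-/p+ zygotes came from Ezh2 fl/fl; Gdf9-Cre mothers, in which the Gdf9 promoter drives Cre in oocytes, and the paternal Ezh2 allele was wild type in both genotypes. There was 1 H3K27me2 library and 1 input library per genotype, so no difference between genotypes below has a replicate check and no test was made. Intervals are 95% intervals that cover the counting of peaks only, and the names of the lists were taken as giving their genotype.

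The stretches below are shown because they are where first-intron peaks recurred. The first 4 lie in peaks that overlapped between the genotypes, on the maternal genome for Cobl and Magi1 and on the paternal genome for Kcnh1 and Lrfn2. The last 4 lie in the overlaps of maternal and paternal first-intron peaks. Each is the middle 150 bases of a shared interval on the plus strand of GRCm38 (mm10), with CpG dinucleotides in capitals. The Kcnh1 peak overlapped 2 peaks of the other genotype, by 1799 and 5599 bp, and its stretch is from the shorter overlap, the one nearer the start of the chromosome. It is the C57BL/6J reference sequence, from which the paternal PWK/PhJ sequence can differ.
Cobl, chr11:12398426-12398575: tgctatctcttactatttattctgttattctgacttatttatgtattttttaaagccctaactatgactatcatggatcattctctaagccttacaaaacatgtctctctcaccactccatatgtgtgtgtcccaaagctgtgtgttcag
Magi1, chr6:94212626-94212775: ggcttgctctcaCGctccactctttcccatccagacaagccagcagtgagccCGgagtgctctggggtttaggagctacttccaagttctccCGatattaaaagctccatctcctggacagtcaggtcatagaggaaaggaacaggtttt
Kcnh1, chr1:192208826-192208975: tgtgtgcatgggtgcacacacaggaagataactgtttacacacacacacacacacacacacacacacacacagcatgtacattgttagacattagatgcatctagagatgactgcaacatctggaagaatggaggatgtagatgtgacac
Lrfn2, chr17:49001226-49001375: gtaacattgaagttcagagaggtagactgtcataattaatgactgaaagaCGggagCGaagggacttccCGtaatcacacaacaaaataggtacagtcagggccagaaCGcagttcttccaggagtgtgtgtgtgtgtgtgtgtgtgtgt
Rap1gap2, chr11:74574326-74574475: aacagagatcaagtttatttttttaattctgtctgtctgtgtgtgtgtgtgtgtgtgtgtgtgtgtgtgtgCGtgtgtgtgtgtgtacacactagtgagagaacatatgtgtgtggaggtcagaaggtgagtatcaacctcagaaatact
9130410C08Rik, chr4:114877126-114877275: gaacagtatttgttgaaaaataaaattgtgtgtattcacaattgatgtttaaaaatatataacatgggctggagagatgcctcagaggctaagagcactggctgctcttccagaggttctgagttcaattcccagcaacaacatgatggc
Abcc1, chr16:14378026-14378175: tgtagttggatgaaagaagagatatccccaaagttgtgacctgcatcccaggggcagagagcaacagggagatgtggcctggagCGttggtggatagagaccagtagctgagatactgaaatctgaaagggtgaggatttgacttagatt
Trim3, chr7:105629126-105629275: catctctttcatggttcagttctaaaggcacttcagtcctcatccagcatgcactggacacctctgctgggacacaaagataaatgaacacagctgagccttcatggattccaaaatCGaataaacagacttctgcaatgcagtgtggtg
These stretches held between 0 and 4 CpG dinucleotides. The Lrfn2 stretch held the most, with 4, and the Cobl, Kcnh1 and 9130410C08Rik stretches held 0. Over the whole of these shared intervals, the density ranged from 2.69 CpG per kb at Cobl to 11.9 CpG per kb at Rap1gap2. The 9130410C08Rik stretch was 90.0% repeat-masked, whereas the Magi1, Abcc1 and Trim3 stretches had 0% of their bases masked.

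First-intron peaks made up a similar share of every list. The share was 10.4% of maternal (9.60 to 11.2%) and 9.68% of paternal (9.25 to 10.1%) peaks in Ezh2m+/p+ zygotes. The Ezh2m-/p+ share was 10.2% of maternal (9.56 to 10.8%) and 9.41% of paternal (9.04 to 9.79%) peaks. The maternal and paternal intervals overlapped in both genotypes. Among intron peaks alone, the first intron held 33.0% and 32.0% on the maternal genomes of Ezh2m+/p+ and Ezh2m-/p+ zygotes, and 34.3% and 34.5% on the paternal genomes.

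The annotation names 1 transcript per peak, so the class depends on which transcript was chosen. Of the peaks listed in a later intron, 218 of 1211 and 381 of 2068 maternal and 627 of 3307 and 760 of 4073 paternal ones (Ezh2m+/p+ first in each pair) had their midpoint inside the first intron of another reference transcript, outside exons and the 3000 bp around starts. Placing every peak by its midpoint in this way raised the first-intron share to 17.1% and 16.6% on the maternal and to 14.95% and 14.75% on the paternal genome of Ezh2m+/p+ and Ezh2m-/p+ zygotes.

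Counted per length of sequence and with every listed peak placed by its midpoint, first introns carried about as many peaks as later introns. By midpoint they held 985 and 1596 maternal and 2670 and 3367 paternal peaks (Ezh2m+/p+ first in each pair). Per Mb this was 2.84 maternal and 7.71 paternal peaks in Ezh2m+/p+ zygotes, and 4.61 and 9.72 in Ezh2m-/p+ zygotes. The annotated first-intron peaks gave 1.655 and 2.71 maternal and 4.81 and 5.97 paternal peaks per Mb, summed over the first introns of genes. The ratios below are by midpoint and were not taken for the annotated classes. The ratio of first to later introns was 0.98 (0.90 to 1.06) and 1.01 (0.94 to 1.07) on the maternal genomes of the respective genotypes. On the paternal genomes it was 1.07 (1.018 to 1.12) and 1.06 (1.019 to 1.11), and without the 1 Mb windows rich in paternal peaks it was 0.98 and 1.01. Against intergenic sequence the ratio was 1.70 (1.57 to 1.83) and 1.59 (1.497 to 1.69) on the maternal genomes and 1.29 (1.23 to 1.35) and 1.25 (1.20 to 1.30) on the paternal genomes. These maternal ratios lay above the paternal ones. Their intervals did not overlap, but they treat each peak as independent, and paternal peaks were clustered, so they do not set the genomes apart. The intergenic ratio was not taken without the windows rich in paternal peaks. Against promoter sequence the ratio was 1.145 (1.049 to 1.25) and 1.04 (0.975 to 1.12) on the maternal genomes and 0.860 (0.818 to 0.905) and 0.870 (0.832 to 0.910) on the paternal genomes, where first introns thus carried fewer peaks per length than promoters. The promoter class here holds midpoints within 3000 bp of a reference start, not the peaks that the annotation calls promoter.

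**Figure D1:**
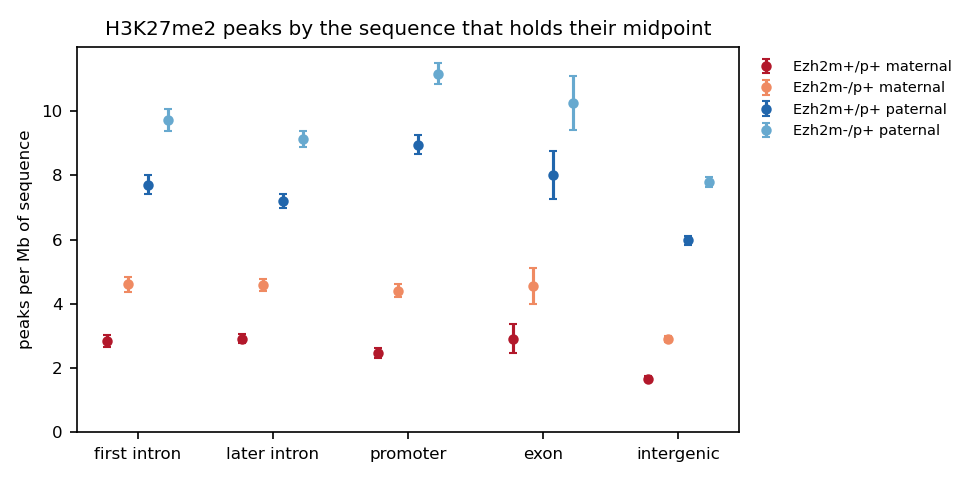
Peaks per Mb of sequence (vertical axis) by the class of sequence that held the peak midpoint (horizontal axis), for the 4 lists, with bars for the 95% counting interval. First and later introns sit at nearly the same height in each list, and intergenic sequence is lowest in each, at 1.68 to 7.80 peaks per Mb.

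First-intron peaks differed between lists in length and height, as all listed peaks did. Their median length was 2999 bp (quartiles 2199 and 3799) on the maternal and 1599 bp (1199 and 2599) on the paternal genome of Ezh2m+/p+ zygotes. For Ezh2m-/p+ zygotes the medians were 2199 bp (1599 and 2999) and 1999 bp (1399 and 2999). The median fold over input, the ratio given by the peak caller, was 7.37 and 36.1 on the maternal and paternal genomes of Ezh2m+/p+ zygotes and 22.9 and 15.8 in Ezh2m-/p+ zygotes. Median folds over all listed peaks were 7.37, 36.1, 23.7 and 15.8 in the same order.

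The folds took a limited set of values. The 595 maternal first-intron peaks of Ezh2m+/p+ zygotes took 86 different fold values, and the 2147 paternal ones of Ezh2m-/p+ zygotes took 230. The fraction of each chromosome covered by assigned reads had a median over 20 chromosomes of 25.0% and 35.5% on the maternal genomes of Ezh2m+/p+ and Ezh2m-/p+ zygotes, and of 2.18% and 3.17% on the paternal genomes. As the study lists its libraries, sequencing was deeper for the control than for the Ezh2m-/p+ zygotes, in the H3K27me2 and the input library alike, so depth and genotype cannot be told apart. The part of coverage in peak number, length and fold was not tested.

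The largest folds lay in genes of varied function. The fold is a ratio over input and the lists hold no input counts, so the order below is one of folds and not of signal. On the paternal genome of Ezh2m+/p+ zygotes, the largest first-intron fold was 518 in Kcnh1, a voltage-gated potassium channel, at chr1:192208001-192216399. It was followed by Fam163a, with 457, by Htr1d, a serotonin receptor, with 427, and by Mettl7a1, with peaks of 397 and 355 in the same intron. On the paternal genome of Ezh2m-/p+ zygotes, the synaptic adhesion protein gene Lrfn2 led with 449, ahead of Rab3gap2 with 441, the receptor tyrosine phosphatase gene Ptprj with 410, the peroxisomal import gene Pex14 with 378 and Rapgef4 with 347. The peaks in Kcnh1, Fam163a, Htr1d, Lrfn2 and Ptprj, among others, overlapped a first-intron peak of the other genotype.

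Maternal folds were lower at the top. In Ezh2m+/p+ zygotes the highest was 102 in Cobl, an actin nucleator, at chr11:12393001-12399799, then 97.8 in Mcu, the pore of the mitochondrial calcium uniporter. Megf10 followed with 84.4, Sorcs2 with 81.8 and Sil1 with 77.7. Among Ezh2m-/p+ maternal peaks the highest was 94.8 in St6gal1, a sialyltransferase, followed by Gramd3 with 83.4, Garem1 with 68.1 and by Gm13376 and 1700025G04Rik with 63.5 each.

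The longest peaks of each list are given next, chosen for their length alone. The longest maternal ones were 9399 bp in the tyrosine kinase gene Abl1 (fold 6.31), 7999 bp in Jazf1 and 7399 bp in 1700025G04Rik in Ezh2m+/p+ zygotes. Those of Ezh2m-/p+ zygotes were 8599 bp in the kinase gene Sik3 (fold 14.6) and 7599 bp in both Ptpn14 and Lipc. The longest paternal ones were 18799 bp in Ctif (fold 8.92), 17199 bp in Ank2 and 16199 bp in Stk32c in Ezh2m+/p+ zygotes. Those of Ezh2m-/p+ zygotes were 35199 bp in Gm20388 (fold 8.54), 24999 bp in the G protein-coupled receptor gene Gpr39 and 22399 bp in Nxpe4.

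The distance from a peak to the nearest listed start could not be below the promoter limit of 3000 bp. The nearest first-intron peaks lay 3005 bp (Dap), 3017 bp (Dtnb), 3030 bp (Alpk1) and 3013 bp (Tmtc2) away in the maternal Ezh2m+/p+, maternal Ezh2m-/p+, paternal Ezh2m+/p+ and paternal Ezh2m-/p+ lists. The farthest promoter peaks, just inside the limit, lay 3000 bp (Pcolce2), 2999 bp (Slc9a4), 3000 bp (Fignl2) and 2998 bp (C1qa) from theirs. The median distance was 17.9 kb (quartiles 9.20 and 42.6) and 16.8 kb (8.02 and 38.7) on the maternal genomes of Ezh2m+/p+ and Ezh2m-/p+ zygotes, and 21.5 kb (9.15 and 53.0) and 21.4 kb (9.04 and 56.4) on the paternal genomes. The paternal intervals of the median, from 19.8 to 23.8 kb and from 19.6 to 23.4 kb, overlapped the maternal Ezh2m+/p+ interval of 15.7 to 19.95 kb and not the maternal Ezh2m-/p+ interval of 15.2 to 18.6 kb.

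The nearest start was often not that of the gene whose intron held the peak. The host gene, that of the transcript named in the annotation, was also the nearest gene for 76.1% and 77.4% of maternal and 72.9% and 72.7% of paternal first-intron peaks in the Ezh2m+/p+ and the Ezh2m-/p+ list. Measured from the host's own start, the median distance was 26.1 and 26.5 kb on the maternal and 27.1 and 27.6 kb on the paternal genomes. Between 11 and 42 peaks per list lay closer than 3000 bp to their host's start, all with a nearest listed start beyond that limit.

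Gene length differed strongly with the measure used. The listed gene length is that of the nearest transcript. Its median was 65.1 kb and 63.5 kb on the maternal genomes of Ezh2m+/p+ and Ezh2m-/p+ zygotes. On the paternal genomes it was 61.1 kb and 65.0 kb, and the intervals overlapped. The later-intron peaks had medians of 33.4 to 42.5 kb, and all listed peaks 17.9 to 20.9 kb. The host genes, measured over their whole span in the reference annotation, had median lengths of 128 and 129 kb on the maternal and 148 and 150 kb on the paternal genomes. Host lengths differ from listed ones in the span measured as well as in the gene, and these parts were not separated. The intron that held the peak had a median length of 55.98, 59.1, 62.0 and 65.3 kb in the maternal Ezh2m+/p+, maternal Ezh2m-/p+, paternal Ezh2m+/p+ and paternal Ezh2m-/p+ lists.

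Host genes had longer first introns than genes at large. Of 15573 genes with first-intron sequence that could hold such a peak, 3.04% and 4.84% had a maternal first-intron peak in Ezh2m+/p+ and Ezh2m-/p+ zygotes, and 5.09% and 6.29% a paternal one. The longest first intron had a median of 11.5 kb over all these genes, and of 53.6 and 51.3 kb over maternal and 42.5 and 42.8 kb over paternal hosts. Genes whose longest first intron reached 100 kb were 4.99% of genes and held 42.4% of the sequence. They held 33.7% and 34.2% of maternal and 40.4% and 40.8% of paternal first-intron peaks.

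The share of genes with a peak rose with each class of first-intron length from 5 kb upward. In Ezh2m+/p+ zygotes it went from 0.805% (5 to 20 kb) to 16.1% (100 kb or more) on the maternal genome and from 2.23% to 22.1% on the paternal genome. The Ezh2m-/p+ shares went from 1.61% to 23.9% and from 2.94% to 27.8%. Per Mb of first introns the classes were much closer, counted here over the annotated first-intron peaks. Maternal peaks per Mb were highest in introns of 20 to 50 kb, at 2.26 and 3.36, and were 1.32 and 2.19 in introns of 100 kb or more. Paternal peaks per Mb were 5.45 and 6.33 in introns of 20 to 50 kb and 4.59 and 5.75 in those of 100 kb or more.

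**Figure D2:**
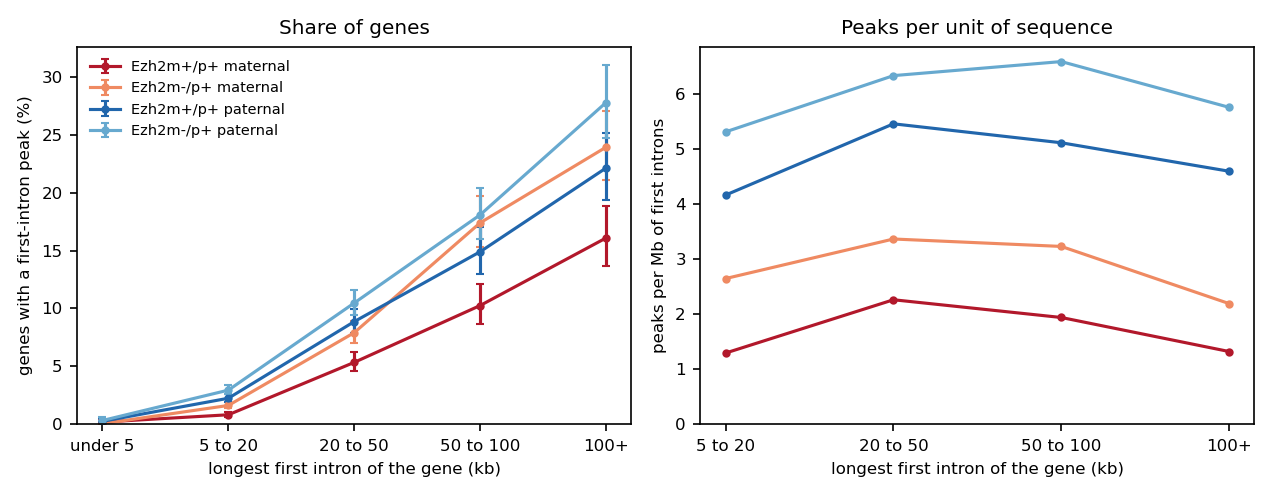
Left, percent of genes with a first-intron peak by the length of their longest first intron in kb, with 95% Wilson intervals. Right, peaks per Mb of first introns for the 4 longer classes, without intervals. The share of genes climbs to between 16.1 and 27.8% in the longest class, while peaks per Mb rise from 5 to 20 kb to 20 to 50 kb in each list and are lower again in the longest class.

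Paternal first-intron peaks more often shared a host gene. The 1729 paternal peaks of Ezh2m+/p+ zygotes lay in 797 genes and the 2147 of Ezh2m-/p+ zygotes in 986, and hosts with 5 or more peaks held 37.3% and 36.7% of them. On the maternal genomes, 474 and 753 genes were hosts, and such hosts held 3.70% and 6.79% of peaks. A host had a single peak in 82.3% and 81.0% of maternal and in 62.2% and 61.3% of paternal cases. The 201 windows of 1 Mb with at least 20 paternal peaks in both genotypes held 52.8% and 43.3% of paternal first-intron peaks, beside 52.9% and 45.6% of all paternal peaks, and 6.55% and 4.82% of maternal first-intron peaks, beside 4.60% and 4.67% of all maternal peaks.

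The 5 hosts with most peaks in each list are described here, and since they were chosen for their counts in 1 list, no contrast between the lists follows from them. Gm20388 was among the 5 in all 4 lists. Cadm1, which encodes a cell adhesion molecule, had 32 and 21 paternal peaks in Ezh2m+/p+ and Ezh2m-/p+ zygotes and 0 maternal peaks in both. Slc35f4, a solute carrier gene, had 25 and 26 paternal peaks, Gm28928 had 24 and 32, and Gpr39 had 24 and 20, each with 0 maternal peaks. Ptprd, a receptor tyrosine phosphatase of synapses, had 16 and 25 paternal and 0 maternal peaks. Asic2, an acid-sensing ion channel, had 7 and 5 maternal peaks and 0 paternal ones. Dpp6, an auxiliary subunit of potassium channels, had 5 and 7 maternal peaks and 1 paternal peak in each genotype. The neuregulin gene Nrg2 had 1 and 6 maternal peaks, Ntm, an adhesion protein, had 4 and 1, and Gm38551 had 5 and 2 in an intron of 35.5 kb.

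Gm20388 had the most peaks in both paternal lists, with 51 and 52, and in the maternal list of Ezh2m-/p+ zygotes, with 12, and it had 5 maternal peaks in Ezh2m+/p+ zygotes. It is a readthrough gene model on chromosome 8 whose first intron of 4384 kb spans many other genes, and the peak farthest from its host's start lay in it in every list, at 2331 and 3810 kb on the maternal and 4376 and 4380 kb on the paternal genomes of Ezh2m+/p+ and Ezh2m-/p+ zygotes. Without this host, the first-intron share of each list, its overlaps with the other lists and its median listed gene length stayed inside their intervals.

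**Figure D3:**
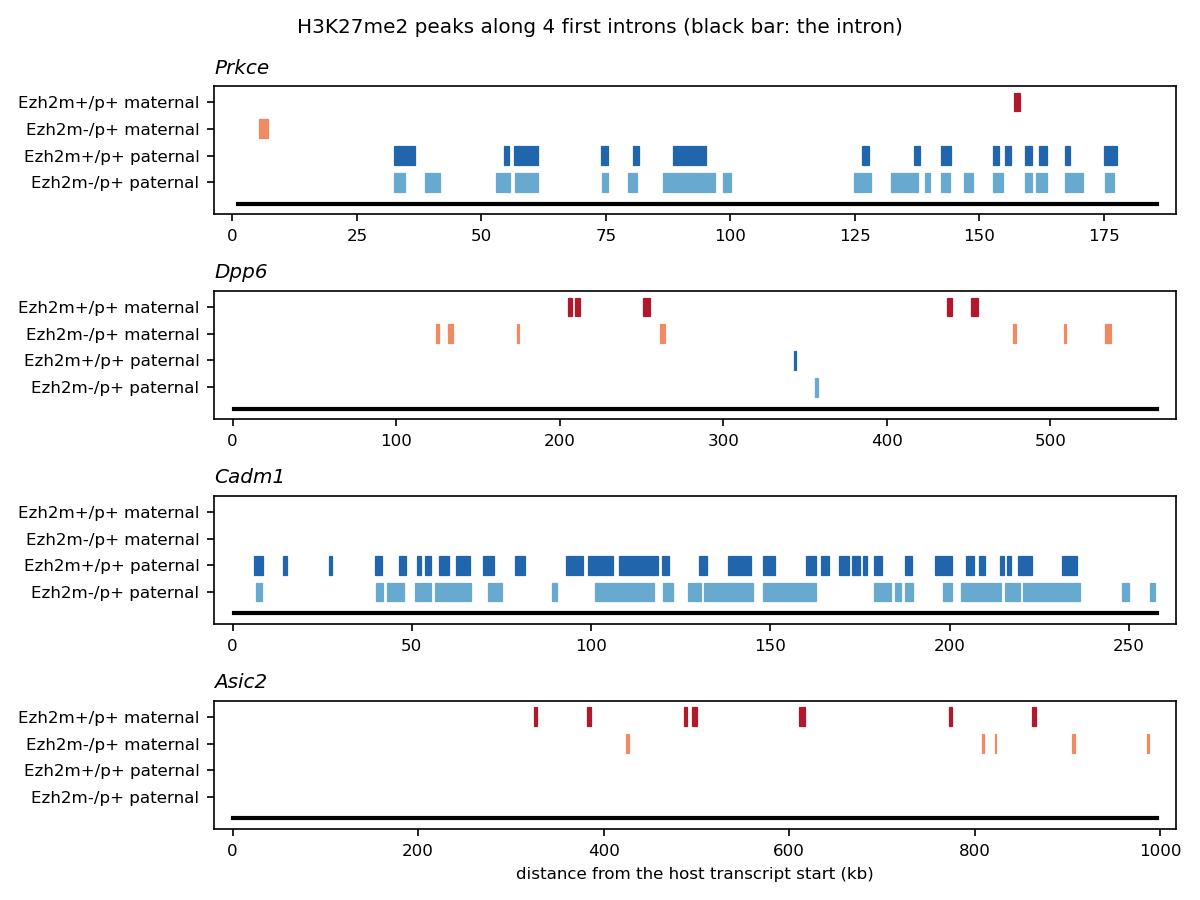
Positions of first-intron peaks along the first introns of Prkce, Dpp6, Cadm1 and Asic2, in kb from the start of the host transcript, with 1 row per list and peaks drawn to scale. Many paternal peaks of Prkce and Cadm1 overlap between the genotypes. The maternal peaks and the single paternal peaks of Dpp6, and the maternal peaks of Asic2, do not.

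Peaks overlapped between genotypes more often on the paternal than on the maternal genome. Of paternal first-intron peaks, 1146 of 1729 (66.3%, 64.0 to 68.5%) in Ezh2m+/p+ zygotes overlapped a paternal peak of Ezh2m-/p+ zygotes by at least 1 bp, beside 66.1% of all paternal peaks. In the other direction 946 of 2147 (44.1%, 42.0 to 46.2%) did, beside 45.7%. On the maternal genome, 66 of 595 (11.1%, 8.81 to 13.9%) overlapped, beside 9.47% of all maternal peaks, and in the other direction 67 of 975 (6.87%, 5.45 to 8.64%), beside 5.78%. With a reciprocal overlap of 50% the paternal shares were 27.8% and 21.75% and the maternal ones 5.88% and 3.69%, and with peaks of a fold over 10 they were 45.02% and 37.0%, and 6.61% and 2.32%. Each first-intron share at 1 bp was close to that of its whole list. Later-intron peaks had 62.9% (61.3 to 64.6%) and 41.2% (39.7 to 42.7%) on the paternal genome and 10.1% (8.503 to 11.9%) and 5.95% (5.01 to 7.05%) on the maternal genome, and each interval overlapped that of the first-intron peaks.

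Paternal recurrence varied with the length of the peak and with how many peaks its host had. In Ezh2m+/p+ zygotes, 55.2% of paternal first-intron peaks under 2000 bp and 97.8% of those of 4000 bp or more overlapped a peak of the other genotype. The part of length itself in this difference was not tested. Where the host had 1 peak the share was 49.8% (45.4 to 54.2%), and where it had 5 or more it was 80.9% (77.7 to 83.8%). The same shares in Ezh2m-/p+ zygotes were 31.3% and 54.3%. On the maternal genome the shares in the control were 10.5% for hosts of 1 peak, 12.6% for hosts of 2 to 4 and 9.09% (2.53 to 27.8%) for hosts of 5 or more. In the Ezh2m-/p+ list they were 6.20%, 7.43% and 10.6% (5.23 to 20.3%). By length, from under 2000 bp to 4000 bp or more, maternal peaks gave 13.6%, 8.77% and 16.3% in the control and 4.59%, 8.85% and 10.1% in the Ezh2m-/p+ list. Recurrent and other paternal peaks had median folds of 36.1 each in the control and of 13.8 and 19.7 in the Ezh2m-/p+ list.

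**Figure D4:**
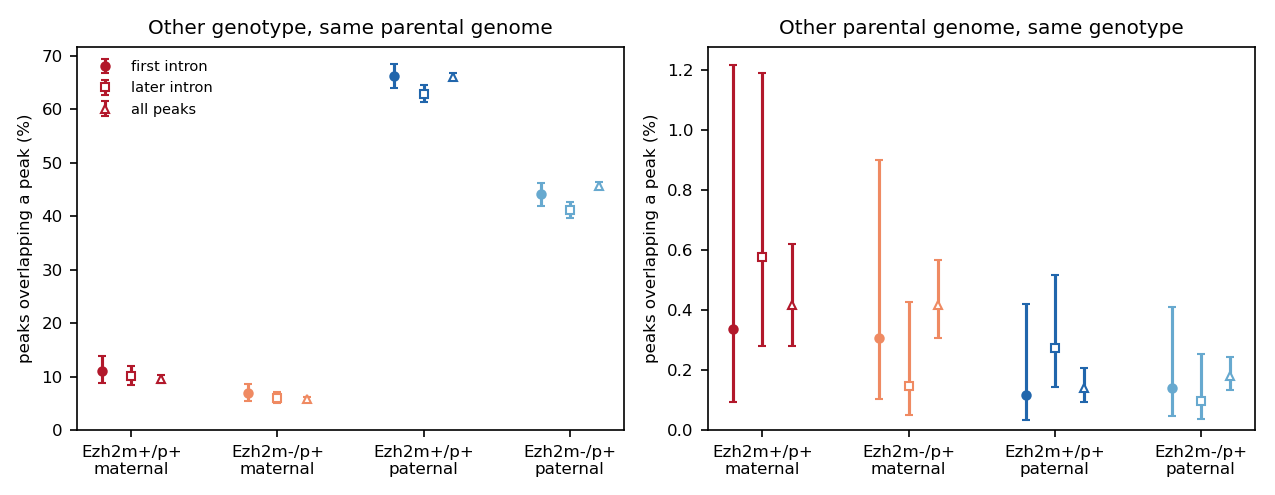
Percent of peaks that overlapped a peak of the other genotype on the same parental genome (left) or of the other parental genome in the same genotype (right), with 95% Wilson intervals. First-intron peaks (filled circles) sit near later-intron (squares) and all (triangles) peaks of their list, at 44.1 and 66.3% in the paternal and 6.87 and 11.1% in the maternal lists on the left, and at 0.336% or less on the right.

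The highest paternal peaks among those that overlapped the other genotype are given with the folds of their partners. The Kcnh1 peak of 518 overlapped 2 peaks of Ezh2m-/p+ zygotes, with folds of 7.55 and 10.2. The Fam163a peak of 457 lay in a peak of 12399 bp with a fold of 40.7, and the Htr1d peak of 427 overlapped one of 14.4. The Mettl7a1 peaks of 397 and 355 met folds of 25.0 and 82.7. From the other side, Lrfn2 with 449 and Rab3gap2 with 441 each met a peak of 132 in Ezh2m+/p+ zygotes. Ptprj with 410 met 193 and 72.2, Pex14 with 378 met 30.1, and the cadherin gene Cdh20 with 347 met 10.5. The peaks were chosen for overlapping and for their height in 1 list, so both their shared place and the lower folds of their partners are a description only.

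On the maternal genome, the scaffold protein gene Magi1 was named from both sides. Its peak at chr6:94209601-94216399 had a fold of 64.3 in Ezh2m+/p+ zygotes and enclosed a peak of 3399 bp with a fold of 37.5 in Ezh2m-/p+ zygotes. The Cobl peak of 102 met a fold of 8.22, that in B630019A10Rik of 68.4 met folds of 32.1 and 6.21, and those in Prdm10 and Rprd2, both of 56.3, met 5.35 and 22.2. From the Ezh2m-/p+ side, Lrrfip1 with 57.4 met 6.20, Ppp1r13b with 56.6 met 6.37, Gm20711 with 46.6 met 7.04, and Tgfa, which encodes a ligand of the EGF receptor, with 42.8 met 6.87.

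Maternal and paternal first-intron peaks almost never coincided. In Ezh2m+/p+ zygotes, 2 of 595 maternal peaks (0.336%, 0.0922 to 1.22%) overlapped a paternal peak, beside 0.418% of all maternal peaks, and 2 of 1729 paternal peaks (0.116%) overlapped a maternal one, beside 0.14%. In Ezh2m-/p+ zygotes, 3 of 975 maternal peaks (0.308%, 0.105 to 0.901%) did, beside 0.416%, and 3 of 2147 paternal peaks (0.140%), beside 0.18%. First-intron shares thus lay near those of all peaks.

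Every such pair between first introns is named here. In Ezh2m+/p+ zygotes, a maternal peak of fold 6.03 and a paternal peak of fold 108 shared 1599 bp in intron 1 of Rap1gap2, which encodes a GTPase-activating protein of Rap1. The second pair shared 1199 bp in 9130410C08Rik, with folds of 6.03 and 30.1. In Ezh2m-/p+ zygotes, peaks of 25.2 and 63.0 shared 199 bp in Abcc1, which encodes a drug efflux transporter, and peaks of 6.88 and 78.8 shared 1999 bp in the tripartite motif gene Trim3. The third maternal overlap was in Sctr and the third paternal one in Armh1, where the partner was not a first-intron peak. The pairs of the genotypes were in different genes.

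Host genes were also compared, each of them a larger target than a peak. Of maternal hosts, 180 were shared between the genotypes, 38.0% of the 474 in Ezh2m+/p+ and 23.9% of the 753 in Ezh2m-/p+ zygotes, beside 4.84% and 3.04% of all genes that were hosts in the other list. Paternal hosts shared 558 genes, 70.0% of 797 and 56.6% of 986, beside 6.29% and 5.09%. Between the parental genomes, 65 genes were shared in Ezh2m+/p+ zygotes, 13.7% of maternal and 8.16% of paternal hosts, beside 5.09% and 3.04%, and 115 in Ezh2m-/p+ zygotes, 15.3% and 11.7%, beside 6.29% and 4.84%. These counts moved with the peaks admitted. With peaks of a fold over 10 the maternal lists shared 77 hosts, the paternal lists 433 and the parental genomes 32 and 74, and with peaks over 2000 bp they shared 110, 222, and 23 and 32.

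Since the share of genes with a peak rose with first-intron length, sharing was also read within classes of length. Among genes with a first intron of 100 kb or more, 58.4% of the maternal hosts of Ezh2m+/p+ zygotes were also maternal hosts in Ezh2m-/p+ zygotes, beside 23.9% of all genes of that class. For paternal hosts the same values were 88.4% and 27.8%. Between parental genomes in Ezh2m+/p+ zygotes, 28.8% of maternal hosts of that class were also paternal hosts, beside 22.1% of the class, and in introns of 50 to 100 kb 14.3%, beside 14.9%. In Ezh2m-/p+ zygotes the values were 32.3% beside 27.8%, and 16.3% beside 18.1%. In introns of 20 to 50 kb the shares lay below the class, at 6.17% beside 8.86% in Ezh2m+/p+ and 7.08% beside 10.5% in Ezh2m-/p+ zygotes. In those of 5 to 20 kb they were 3.23% beside 2.23% and 4.03% beside 2.94%.

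Peaks of shared hosts lay at different distances from each other in the comparisons. From a maternal peak of Ezh2m+/p+ zygotes to the nearest maternal first-intron peak of Ezh2m-/p+ zygotes in the same host, the median gap was 9.40 kb (quartiles 1.002 and 36.9) over 268 peaks, of which 59 touched. For paternal peaks the median gap was 0 kb over 1456 peaks, of which 978 touched. From a maternal to the nearest paternal peak of the same genotype it was 30.8 kb over 89 peaks in Ezh2m+/p+ and 24.1 kb over 174 peaks in Ezh2m-/p+ zygotes, and 2 touched in each. The lists differ in length, and the part of this in the gaps was not tested.

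There were 23 genes with a first-intron peak in all 4 lists, 80 in 3, 688 in 2 and 1290 in 1. The 23 became 8 with peaks of a fold over 10 and 6 with peaks over 2000 bp. From 4 lists to 1, the longest first introns of these genes had medians of 168, 114, 50.8 and 32.0 kb. After Gm20388, Prkce, which encodes protein kinase C epsilon, had the most peaks of the 23, with 15 and 18 paternal peaks and 1 maternal peak in each genotype. Of the others among the first 10, the nuclear receptor gene Rora had 1 and 4 maternal and 9 and 6 paternal peaks, the cation channel gene Trpm3 had 1 and 2, and 5 and 7, and 6330411D24Rik had 1 and 3, and 8 and 9. The RNA-binding protein gene Rbms3 had 4 and 6 maternal peaks and 1 paternal peak in each genotype, and Dpp6 was also richer on the maternal side, with 5 and 7 peaks. The receptor phosphatase gene Ptprt had 1 maternal peak in each genotype and 4 and 5 paternal peaks, the receptor kinase gene Alk 2 and 1, and 4 and 3, and Abtb2 3 and 2, and 1 and 3. Among the other 13, which include Asap1 with as many peaks as Abtb2, Stim1, the calcium sensor of the endoplasmic reticulum, and Lrrc4c, a synaptic adhesion gene, had exactly 1 peak in each list.

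Gene groups are given beside all genes of the same classes of first-intron length, with no test. The groups are by name patterns, so members share families. Within a group, the named genes are those with peaks in most lists, and ties go to the larger number of peaks, so they need not hold most of the group's peaks. Over all genes, 3.04% and 4.84% were maternal and 5.09% and 6.29% paternal hosts in Ezh2m+/p+ and Ezh2m-/p+ zygotes. The share of hosts among cadherins and protocadherins, which join neighbouring cells, lay below that of their length classes in each list but was not set apart from that of all genes. Over the share of all genes it was 0.890 (0.245 to 3.07) and 0.559 (0.154 to 1.93) on the maternal and 1.06 (0.417 to 2.57) and 0.860 (0.338 to 2.08) on the paternal genomes. Of 74 members, 2 and 2 had maternal peaks (2.70% each, beside 10.4% and 16.0% for genes of the same length classes) and 4 and 4 had paternal peaks (5.41% each, beside 14.8% and 18.4%). Many protocadherin transcripts share a large cluster and its sequence, so these members are not independent. Cdh20 had 1 maternal peak in Ezh2m+/p+ zygotes and 4 and 5 paternal peaks, Cdh18 had 1 and 1 paternal, and Celsr1 had 1 maternal peak in Ezh2m-/p+ and 1 paternal peak in Ezh2m+/p+ zygotes.

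Groups of neuronal genes lay on either side of their length classes. Ion channels had maternal peaks in 11 and 14 of 132 members (8.33% and 10.6%, beside 6.34% and 9.84%) and paternal peaks in 13 and 17 (9.85% and 12.9%, beside 9.62% and 11.8%). Trpm3 had peaks in 4 lists and Kcnip4 and Kcnq3 in 3, with 2 and 13 paternal peaks in Kcnip4 and 5 and 6 in Kcnq3. Synaptic adhesion genes had maternal peaks in 5 and 9 of 66 (7.58% and 13.6%, beside 11.7% and 17.6%) and paternal peaks in 10 and 17 (15.2% and 25.8%, beside 16.4% and 20.6%), with Ptprt a host in 4 lists and Lrfn2 and Ntm in 3. Among 37 glutamate and GABA receptor genes, 4 and 3 were maternal and 4 and 3 paternal hosts (10.8% and 8.11% on either genome, beside 8.15% and 12.4% on the maternal and 11.7% and 14.6% on the paternal), with Gabbr2, Grik3 and Grik1 named by the rule. Axon guidance genes, with Plxna4, Ephb2 and Dcc, had 4 and 3 maternal hosts of 53 (7.55% and 5.66%, beside 6.37% and 9.995%) and 5 and 7 paternal hosts (9.43% and 13.2%, beside 9.53% and 11.8%).

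Developmental and signalling groups also held hosts in every list. Developmental transcription factors had 8 and 5 maternal hosts of 99 (8.08% and 5.05%, beside 5.35% and 8.28%) and 10 and 11 paternal hosts (10.1% and 11.1%, beside 8.17% and 10.1%), with Rora, Tshz2 and the retinoic acid receptor gene Rarb named. Genes of Wnt, Fgf and Bmp signalling had 3 and 7 maternal hosts of 61 (4.92% and 11.5%, beside 5.21% and 8.22%) and 5 and 6 paternal hosts (8.20% and 9.84%, beside 8.23% and 10.1%), with Fgf12, Bmpr1b and Bmp6 named. Second messenger enzymes had 5 and 10 maternal hosts of 79 (6.33% and 12.7%, beside 6.51% and 10.2%) and 6 and 11 paternal hosts (7.59% and 13.9%, beside 9.85% and 12.2%), with Prkce, Plcl1 and Camk2b named. Collagens and integrins had 3 and 8 maternal hosts of 63 (4.76% and 12.7%, beside 3.66% and 5.88%) and 5 and 5 paternal hosts (7.94% each, beside 6.01% and 7.39%), with Col26a1, Col11a1 and Col22a1 named. Solute carriers had 5 and 12 maternal hosts of 236 (2.12% and 5.085%, beside 2.62% and 4.21%) and 11 and 14 paternal hosts (4.66% and 5.93%, beside 4.57% and 5.66%), with Slc25a21 and Slc16a12 among those named.

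Zinc finger proteins had 2 and 4 maternal hosts of 279 (0.717% and 1.43%, beside 2.27% and 3.73%) and 10 and 12 paternal hosts (3.58% and 4.30%, beside 4.10% and 5.10%), with Zbtb7c with 11 and 5 paternal peaks, Zbtb40 and Zfp710 named. Ribosomal, proteasomal and respiratory chain subunits had 4 and 2 maternal hosts of 72 (5.56% and 2.78%, beside 2.015% and 3.21%) and 1 and 1 paternal hosts (1.39% each, beside 3.535% and 4.36%), with Ndufaf2, Mrps6 and Rps6ka5 named, of which the last is a kinase caught by the name pattern. Chromatin regulators had 6 and 8 maternal (7.06% and 9.41%, beside 3.40% and 5.47%) and 3 and 5 paternal hosts of 85 (3.53% and 5.88%, beside 5.70% and 6.95%). The histone deacetylase gene Hdac9 had 2 maternal peaks in each genotype, Prdm16 3 and 1 paternal peaks, and Chd8 1 and 2. Oocyte and maternal-effect genes had 0 maternal hosts of 27 in both genotypes (beside 1.83% and 2.95%) and 2 paternal hosts in each (7.41%, beside 3.41% and 4.21%), among Sohlh2, Nlrp4e and Nlrp4d. Imprinted genes had 3 and 4 maternal hosts of 46 (6.52% and 8.70%, beside 3.835% and 6.05%) and 2 and 3 paternal hosts (4.35% and 6.52%, beside 6.29% and 7.72%), with 1 maternal peak in each genotype in both Airn, the antisense transcript of the Igf2r locus, and Gab1, and 1 and 3 paternal peaks in Slc22a3.

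The genes of the methylation machinery are given as counts only. Between 3.04 and 6.29% of all genes were hosts in a list, so a handful of genes would mostly have none. Ezh2, Ezh1, Eed and Suz12 had 0 first-intron peaks in the 4 lists, and Ehmt1, an H3K9 methyltransferase gene, had 1 maternal peak in Ezh2m-/p+ zygotes. Their longest first introns ranged from 3.84 kb in Suz12 and 17.5 kb in Ezh2 to 34.9 kb in Ehmt1, beside a median of 11.5 kb over all genes. Its partner gene Ehmt2 had no usable first intron, so no count is read for it.

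First-intron peaks were richer in G and C and poorer in repeats than the rest of the intron that held them. The median difference in G+C was 1.66 percentage points (1.46 to 1.89) and 1.59 (1.40 to 1.78) on the maternal genomes of Ezh2m+/p+ and Ezh2m-/p+ zygotes, and 1.33 (1.19 to 1.46) and 1.07 (0.916 to 1.21) on the paternal genomes. It was above 0 in 74.0% and 76.5% of maternal and in 68.9% and 66.0% of paternal peaks. Repeat-masked bases made up a median of 19.5 to 21.1% of a peak and 25.2 to 26.8% of the rest, and the peak held fewer in 69.0 to 72.3% of cases. CpG density differed little, with median differences from -0.16 to 0.20 CpG per kb, and the interval left out 0 in the maternal Ezh2m-/p+ list alone. Repeats limit how reads can be placed and sequence differences set where they can be assigned, and the part of both in these differences was not tested. Later-intron peaks gave G+C differences of 1.16 to 1.98 percentage points, so the pattern was also seen there.

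**Figure D5:**
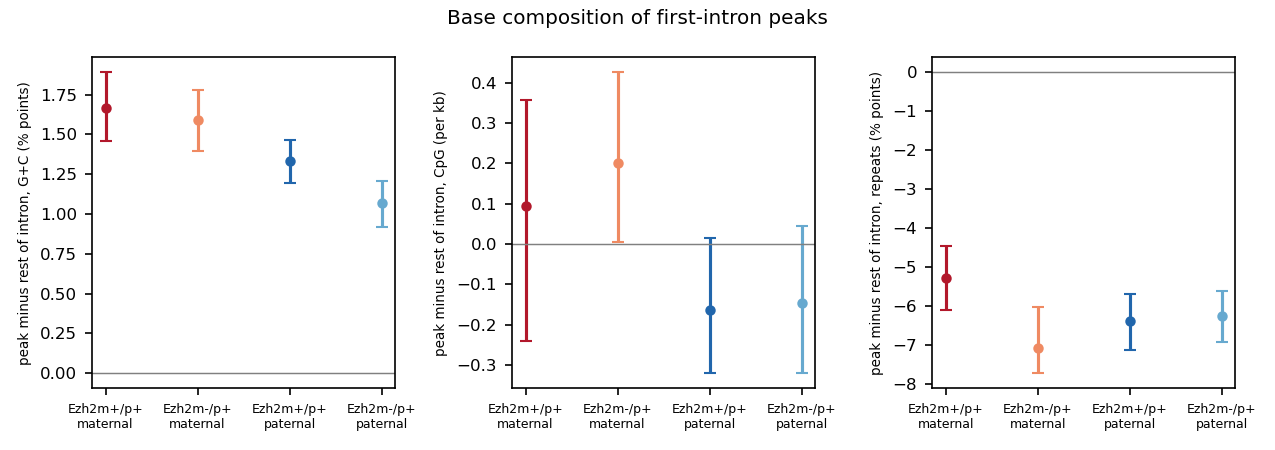
Median difference between a first-intron peak and the rest of its intron in G+C (percentage points), CpG (per kb) and repeat-masked bases (percentage points) for the 4 lists, with 95% order-statistic intervals. G+C lies above 0 by 1.07 to 1.66 points and repeats below 0 in all 4 lists, while CpG lies close to 0.

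A comparison of CpG in the hosts' promoters was void, because between 72.7 and 76.3% of protein-coding hosts and 76.9% of all protein-coding genes had a promoter sequence in the RefSeq table used, below the limit set for such a check.

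Within the intron, cut into 5 segments of equal length, peaks lay least often in segment 1, next to the start. It held 12.5% and 12.96% of maternal and 13.1% and 13.3% of paternal first-intron peaks in the Ezh2m+/p+ and the Ezh2m-/p+ list, and 17.01 to 17.6% of the usable intron sequence. The usable sequence leaves out the 3000 bp around every start. The annotation also takes out peaks whose edge reaches this zone, so midpoints just beyond it are missing while their sequence is counted. The low share of segment 1 is thus set in part by the rule, and how far was not tested. Segment 3 held 25.4% and 23.05% on the maternal genomes, beside 20.7% and 20.97% of the sequence, and segment 4 held 23.4% and 24.07%, beside 20.2% and 20.6%. Segment 2 held 24.1% and 23.3% on the paternal genomes, beside 21.1% in both. Segment 5 held 17.3 to 19.5%, beside 19.95 to 20.4% of the sequence.

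First-intron peaks were spread over all 20 chromosomes. Paternal density was highest on chromosome 1, at 18.3 and 19.5 peak midpoints per Mb of first introns in Ezh2m+/p+ and Ezh2m-/p+ zygotes. The maternal list of Ezh2m+/p+ zygotes had 1 first-intron peak of 42 peaks on chromosome X (2.38%, 0.421 to 12.3%), and that of Ezh2m-/p+ zygotes 11 of 119 (9.24%, 5.24 to 15.8%), beside 10.4% and 10.2% in the whole lists. The paternal lists had 11 of 576 (1.91%, 1.07 to 3.39%) and 24 of 985 (2.44%, 1.64 to 3.6%), beside 9.68% and 9.41%. Leaving out chromosome X kept the first-intron share of each list, its overlaps, its ratio of first to later introns and its median listed gene length inside their intervals.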

How the data were processed

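H3K27me2 ChIP-seq of zygotes, with 1 H3K27me2 and 1 input library per genotype, was analysed from the deposited peak lists. Per the labels and the methods, the authors trimmed reads (Trimmomatic 0.38), aligned them with Bowtie2 to mm10, assigned them to a parental genome by sequence differences and called peaks with SICER against input. The deposited fold is a ratio of H3K27me2 over input, as the authors' peak caller gave it, and every listed peak had a fold above 5 and a length of at least 999 bp. The authors annotated the peaks with a nearest gene, gene length and distance to start. The deposited coverage table holds, as a fraction, how much of a chromosome assigned reads covered, and its 42 values of 2 oocyte groups were not used.

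First-intron peaks, gene lists and comparisons were chosen with earlier results of these data known. Hosts were matched by transcript to GENCODE vM21 on GRCm38, and all 56036 peaks lay inside its chromosomes. Usable sequence left out exons, the 3000 bp around each start and unknown bases. Shares carry Wilson intervals, medians order-statistic intervals, densities Poisson intervals. The rest of an intron had at least 1000 usable bases. Functions were tested on simulated data (Python 3.11.15, numpy 2.4.6, pandas 2.3.3). No test was made, since each genotype had 1 library, and the lists hold no read counts. The study's own summary of its libraries lists read totals, higher for the control than for the Ezh2m-/p+ zygotes; they were not used here, and precision is described by coverage.

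Named in each list were the 5 first-intron peaks of largest fold, the 3 longest, the 5 hosts with most peaks and the peak farthest from its host's start. Also named were hosts in all 4 lists (the 10 with most peaks), the 5 highest peaks recurring between genotypes, every pair of parental genomes, the 3 members of each gene group with peaks in most lists (ties by number of peaks), and Ezh1, Ezh2, Eed, Suz12, Ehmt1 and Ehmt2. A gene group and a named member of another are not reported here. Alternatives were peaks with a fold over 10, peaks longer than 2000 bp, leaving out chromosome X, leaving out peak-rich windows, covered bases, midpoint placement, a reciprocal overlap of 50%, lists of equal size, first-intron partners, genes counted once, host lengths and, chosen after seeing the data, leaving out Gm20388.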

Additional observations from a re-analysis of the deposited data

How the results depend on the processing

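Of 146 values under an alternative, 94 stayed inside the interval of the value given above (or, for counts, within 1.5 times) and 52 did not; 20 of 20 stayed inside on autosomes and 16 of 16 without Gm20388. The cause of the changes was not tested. In what follows, lists are in the order maternal Ezh2m+/p+, maternal Ezh2m-/p+, paternal Ezh2m+/p+, paternal Ezh2m-/p+ unless named. Placing peaks by midpoint gave first-intron shares of 17.15, 16.61, 14.95 and 14.75%. The paternal Ezh2m-/p+ share became 8.78% over 2000 bp, 9.805% without peak-rich windows and 8.521% by covered bases. The paternal Ezh2m+/p+ ratio of first to later introns was 1.14 over 2000 bp and 0.9819 without peak-rich windows, and the paternal Ezh2m-/p+ ratio without them was 1.009. Host lengths gave medians of 128.0, 129.1, 147.6 and 150.1 kb. Paternal medians of listed length were 76.69 and 80.4 kb over 2000 bp and 47.81 and 49.97 kb with each gene counted once. Overlap with the other genotype was 6.612, 2.322, 45.02 and 36.99% at a fold over 10, and 5.882, 3.692, 27.82 and 21.75% at a reciprocal 50%. Over 2000 bp it was 7.991% (maternal Ezh2m+/p+), 73.26 and 40.45% (paternal). On the paternal genomes it was 51.96 and 33.42% without peak-rich windows, 73.11 and 34.79% with lists of equal size, and 56.56 and 41.97% with first-intron partners. Overlap with the other parental genome was 0% for both Ezh2m+/p+ lists at a fold over 10 and at a reciprocal 50%, and 0% for both Ezh2m-/p+ lists over 2000 bp, which were 0.1026% maternal and 0.04658% paternal at a reciprocal 50%. Shared hosts at a fold over 10 were 77 maternal, 32 and 74 between parental genomes and 8 in all 4 lists. Over 2000 bp they were 110 maternal, 222 paternal, 23 and 32 between parental genomes and 6 in all 4 lists. No paired analysis was possible because no result comes from a test: each genotype had 1 library, whose maternal and paternal lists were compared within it.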
